A study of Arabidopsis thaliana with 8 samples.

Results

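In whole Arabidopsis thaliana plants moved to 4 °C, a set of transcripts stayed near its warm level for the first day and stood lower after a week. A probe set, the group of array probes that reports 1 transcript, was chosen by its signals at 0 h, 24 h and 7 days. With L standing for log2 of the group's mean signal plus 8, L had to be lower at 7 days by at least 1 than at 0 h and by at least 0.8 than at 24 h. L at 24 h had to lie within 0.7 of L at 0 h, and both 7-day arrays had to read below every 0 h and 24 h array. Of 22746 probe sets without controls, 164 met these limits. After 1 probe set in the mainly organellar ID range and the antenna gene LHCB4.3 were left out, 162 remained. The other 3 genes that the rule leaves out by name did not meet its limits.

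The plants were of the Col-0 accession, grew on agar at 24 °C under 100 µmol photons (per square metre and second) without a dark period, and entered the cold 10 days old. They were harvested without cold (0 h) or after 1 h, 24 h or 7 days at 4 °C in about 25 µmol of light, with 2 one-colour arrays a group. All seed had been stratified for 4 days at 4 °C. Cold therefore came with dimmer light, and the 7-day plants were also older than the others. Warm plants of the later times were not analysed here, so cold, light and age cannot be told apart.

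Arabidopsis acclimates to low, non-freezing temperature in steps. Transcription factors respond within minutes to hours, cold-protective proteins accumulate within about a day, and over the following days metabolism, membranes and growth adjust to the new state. Transcripts that are lower only after days share the timing of that later phase. Whether they are part of it was not tested. In a leaf, photosynthesis, photorespiration and their accessory chloroplast enzymes are among the processes known to be adjusted during long cold.

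The values that chose the members are given as a description. L at 7 days minus L at 0 h ran from -2.81 to -1.004 with a median of -1.29, and L at 7 days minus L at 24 h from -2.54 to -0.81 with a median of -1.08. L at 24 h minus L at 0 h had a median of -0.19, and it was below 0 for 123 of the 162, so the first day was flat only within the width the rule allows. The median signal of the members was 60.5 at 0 h, 59.3 at 1 h, 54.7 at 24 h and 18.7 at 7 days. In all, 1055 probe sets of the array had an L at 7 days lower than at 0 h by at least 1. For 737 of these L at 24 h was already lower than at 0 h by over 0.7, for 5 it was higher by over 0.7, and 313 lay within the band from which the late-fall set was drawn.

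**Figure D1:**
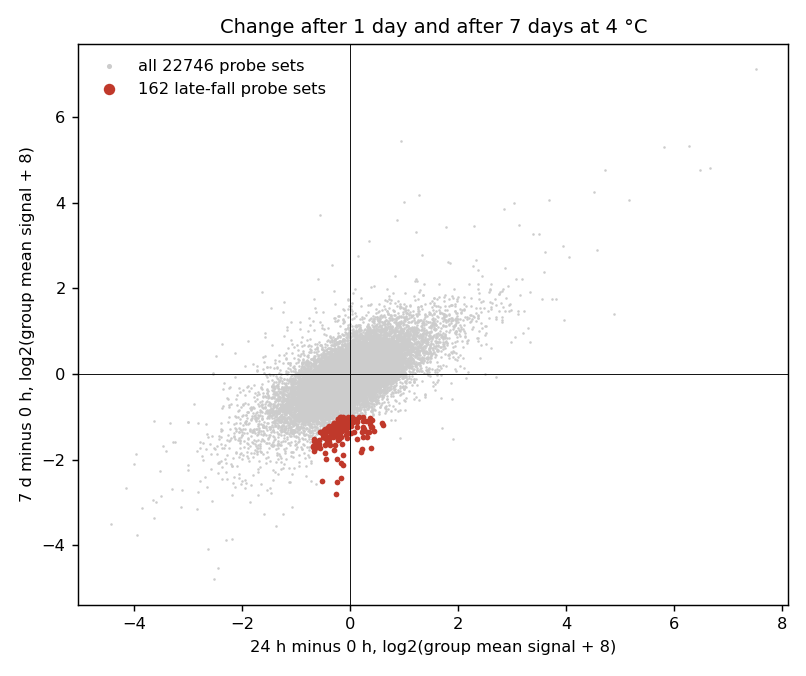
Difference in log2(group mean signal + 8) from 0 h, at 24 h on the x axis and at 7 days on the y axis. Grey points are all 22746 probe sets and red points the 162 late-fall probe sets, which lie below -1 on the y axis within a band of 0.7 on either side of 0 on the x axis.

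Of the 162 probe sets, 89 pair with a single gene and stand for 88 genes, since AT1G51110 has 2 of them. Another 2 pair with several genes, and 71 are unlisted in the probe annotation used here and carry no gene name. Only 7 of the single-gene members have a symbol, and 82 are known by a locus code. What such genes do is given below from general knowledge of their protein families, not from the files.

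Signals are MAS5 intensities, scaled by the authors so that each array has nearly the same trimmed mean. Replicate arrays correlated at r = 0.956 to 0.972 over the 15017 tested probe sets, a correlation across genes rather than samples. The median signal of an array lay between 37.3 and 43.9, and between 38.5 and 39.5 on the 7-day arrays. The 10th percentile of the signal was 1.83 and 1.95 on the 7-day arrays and 1.90 to 2.67 on the others. For actin, the controls at the 3′ end of the transcript read 2.95 to 3.84 times those at its 5′ end on the 0 h arrays and 3.83 to 5.91 times on the 7-day arrays, a measure of RNA integrity and labelling. Over all 8 arrays this ratio lay between 2.95 and 6.53. For GAPDH it was 1.299 to 1.44 at 0 h and 1.24 to 1.33 at 7 days. Leaf and root markers were both detected: RCA (Rubisco activase) read 3676 and 6046 at 0 h, and PYK10, a beta-glucosidase of root endoplasmic reticulum bodies, 2368 and 2177. In whole plants, fewer cells of a type and less RNA per cell cannot be told apart.

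Members differed widely in brightness. Their mean signal at 0 h ranged from 9.26 to 3745, with 60 members at 100 or above and 54 under 30. A filter that asks for a signal above the 40th percentile of the array on at least 2 arrays was passed by 115 members and missed by 47. The dim members lie where MAS5 signals of replicate arrays spread most in relative terms. BZIP24, a bZIP transcription factor gene, shows this: it read 9.98 and 11.6 at 0 h, 12.3 and 13.8 at 1 h, 1.24 and 18.9 at 24 h, and 0.648 and 0.903 at 7 days. Its 24 h arrays lie on either side of the 0 h values, with the lower one barely above the 7-day values.

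**Figure D2:**
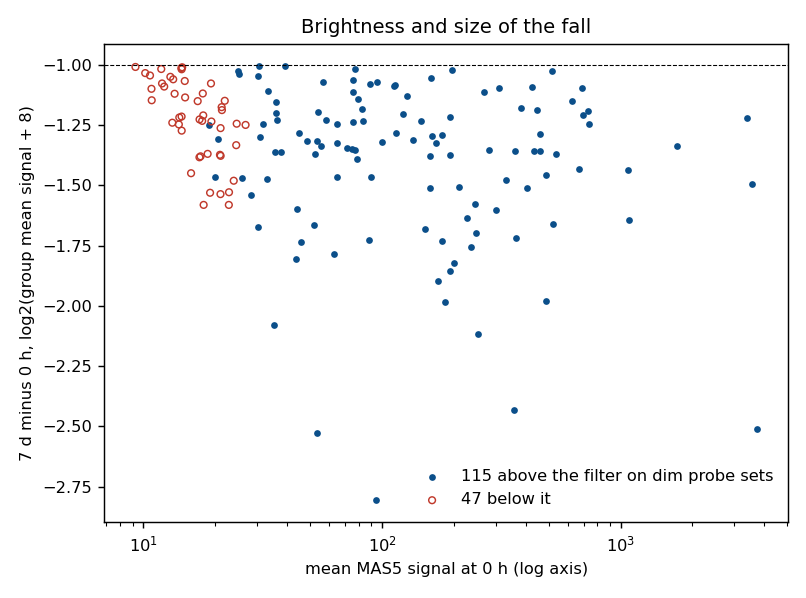
Mean MAS5 signal at 0 h (log axis) against L at 7 days minus L at 0 h for the 162 late-fall probe sets. Filled blue points are the 115 that passed the filter on dim probe sets and open red points the 47 that did not, all of which lie at the dim end. The dashed line marks the limit of -1.

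The pseudocount of 8 limits how low L can go, and none of the 54 members with a mean under 30 at 0 h was among the 27 with the largest difference. The largest of all was that of an unlisted probe set. Probe set 249798_at, which has no gene name here, read 139 and 49.6 at 0 h, 154 and 71.7 at 1 h, 119 and 34.9 at 24 h, and 1.43 and 11.7 at 7 days. Its replicates differ by over 2-fold within each group, yet both 7-day arrays lie below all others. The unlisted probe set 259161_at was the brightest member at 0 h. It read 3146 and 4343 at 0 h, 4505 and 3719 at 1 h, 2749 and 2482 at 24 h, and 662 and 638 at 7 days. Here the 7-day arrays stand far below the rest and close to each other, and the mean signal at 0 h was 5.76 times that at 7 days.

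Among genes with a name or locus code, AT2G39850, a subtilase (a secreted serine protease), had the lowest L at 7 days relative to 0 h, at -2.53. It read 37.9 and 68.99 at 0 h, 62.3 and 78.8 at 1 h, 27.9 and 59.6 at 24 h, and 1.93 and 3.36 at 7 days, the last at the floor of the array. MSRB6, a methionine sulfoxide reductase that repairs oxidised methionine in proteins, came next at -2.43. Its signals were 282 and 435 at 0 h, 227 and 391 at 1 h, 342 and 294 at 24 h, and 51.9 and 67.9 at 7 days. The first 3 time points of MSRB6 overlap one another, and the mean of 358 ± 108 at 0 h was 5.98 times that of 59.9 ± 11.3 at 7 days (SD, n = 2).

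Some of the bright members encode proteins of chloroplast metabolism, put together after their values were seen, beginning with photorespiration. This pathway recycles the glycolate that arises when Rubisco fixes oxygen, passing carbon from the chloroplast through peroxisome and mitochondrion and back as glycerate. LrgB, the chloroplast envelope carrier that exports glycolate and takes up glycerate, read 1143 and 1012 at 0 h, 1323 and 919 at 1 h, 847 and 717 at 24 h, and 451 and 336 at 7 days. AT1G80380, the glycerate kinase that returns glycerate to the Calvin cycle, read 628 and 770 at 0 h, 704 and 702 at 1 h, 629 and 589 at 24 h, and 303 and 293 at 7 days. For AT1G80380 the 24 h arrays touch the 0 h range, whereas those of LrgB already lie below its 0 h arrays. L at 7 days minus L at 0 h was -1.44 for LrgB and -1.21 for AT1G80380. The only other gene of this pathway found by symbol among the measured genes was HPR, the hydroxypyruvate reductase that forms glycerate in the peroxisome, which is no member. HPR read 2456 and 3025 at 0 h, 3072 and 2391 at 1 h, 1075 and 1093 at 24 h, and 974 and 763 at 7 days. Most of its difference was thus in place at 24 h, where L was lower than at 0 h by 1.33 on the log2 scale, against 0.46 for LrgB and 0.20 for AT1G80380. This list of the pathway's genes was drawn up after the members had been seen. AT1G80380 entered it by locus code, whereas genes that are no members were sought by symbol or synonym only. Pathway genes known here by locus code alone may thus be missing, and nothing is read from the share of members.

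A further group of members encodes proteins known from plastoglobules, the lipid bodies of thylakoid membranes, or other chloroplast enzymes. AT1G51110, a fibrillin (a plastid lipid-associated protein), was found by both of its probe sets. The brighter read 251 and 311 at 0 h, 224 and 222 at 1 h, 178 and 205 at 24 h, and 122 and 88.2 at 7 days. The other read 202 and 220 at 0 h, 201 and 225 at 1 h, 164 and 135 at 24 h, and 54.0 and 84.2 at 7 days. In both, the 7-day arrays lie below all others and the 24 h arrays lie between, with L at 7 days minus L at 0 h of -1.35 and -1.51. AT1G32220, a dehydrogenase-like protein with a Rossmann fold, read 473 and 447 at 0 h, 584 and 402 at 1 h, 385 and 345 at 24 h, and 194 and 173 at 7 days. AT5G57040, of the glyoxalase family of detoxifying enzymes, read 521 and 517 at 0 h, 566 and 505 at 1 h, 447 and 348 at 24 h, and 181 and 136 at 7 days. Both genes show the same order, with 0 h and 1 h overlapping, 24 h below 0 h and 7 days lowest. PGL34, a plastoglobulin, and NDC1, a plastoglobule dehydrogenase, were measured too and are no members, with L at 7 days minus L at 0 h of 0.47 and -0.32. They were sought by symbol or synonym, whereas AT1G51110 and AT1G32220 were entered by locus code, so other plastoglobule genes may be missing.

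Further members included other metabolic enzymes and a gene without a given role. AT1G12230, a transaldolase of the pentose phosphate pathway, read 244 on both 0 h arrays, 193 and 250 at 1 h, 142 and 158 at 24 h, and 91.5 and 61.6 at 7 days. With L at 24 h lower than at 0 h by 0.68, it lies at the edge of the band that the rule calls flat. AT1G52510, of the alpha/beta hydrolase superfamily, read 265 and 232 at 0 h, 278 and 226 at 1 h, 161 and 156 at 24 h, and 66.8 and 75.5 at 7 days. It is likewise near that edge at -0.62. AT4G12830, a second alpha/beta hydrolase, had a smaller difference, from 178 and 143 at 0 h to 72.8 and 73.9 at 7 days. AT3G17800, for which no role is given, read 567 and 408 at 0 h and 191 and 154 at 7 days.

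**Figure D3:**
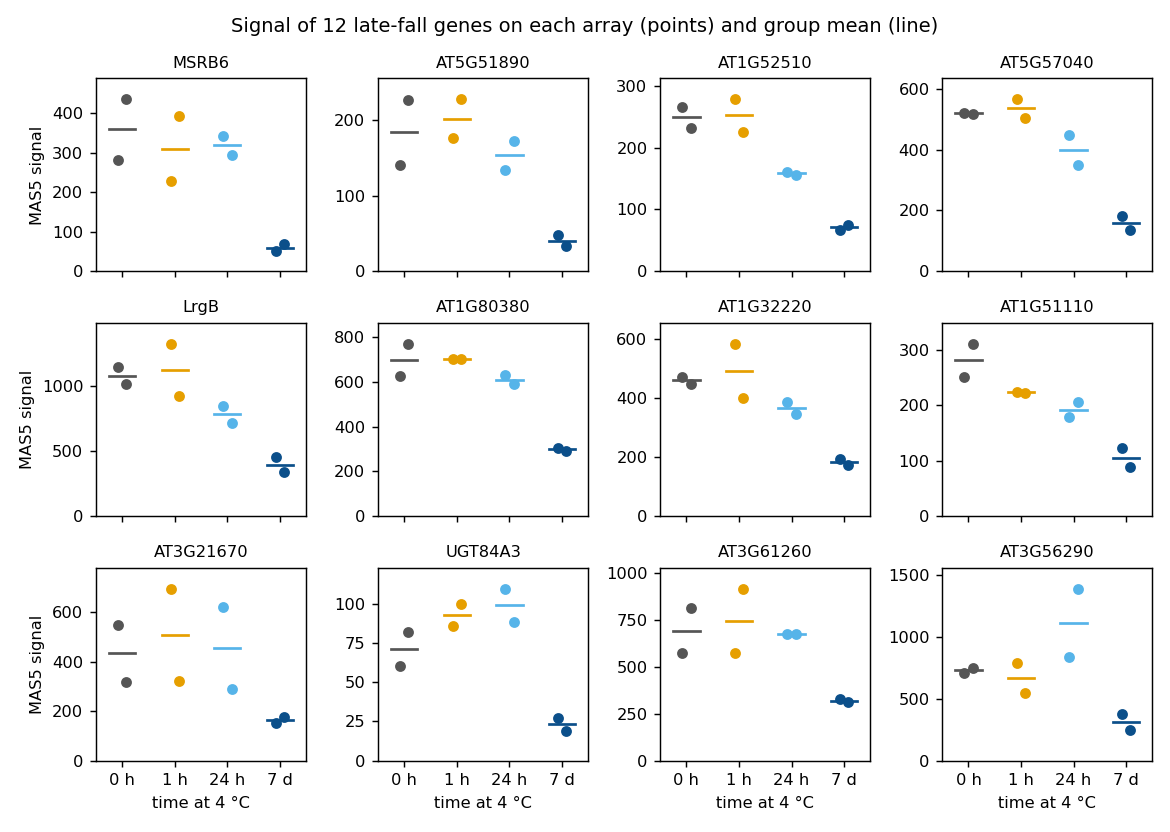
MAS5 signal (y axis from 0) of 12 late-fall genes at 0 h, 1 h, 24 h and 7 days, with a point per array and a line at the mean of 2 arrays. AT1G51110 is shown by its brighter probe set. In each panel both 7-day points lie below all others, while the first 3 times overlap for MSRB6 and AT3G21670 and step down at 24 h for AT1G52510.

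Some members encode oxidative enzymes of the cell wall and apoplast, likewise put together after their values were seen. AT5G51890, a class III peroxidase (secreted enzymes that cross-link wall polymers), read 141 and 228 at 0 h, 177 and 228 at 1 h, 134 and 173 at 24 h, and 47.5 and 33.8 at 7 days. AT1G31710, a copper amine oxidase that breaks down polyamines and releases hydrogen peroxide, read 199 and 105 at 0 h, 173 and 99.9 at 1 h, 108 and 75.6 at 24 h, and 43.7 and 40.01 at 7 days. For AT1G31710 the 24 h arrays reach into the 0 h range because the 0 h arrays differ by almost 2-fold. Dim members of this kind were sks15, a relative of the multicopper oxidase-like protein SKU5 (35.1 and 14.1 at 0 h, 6.90 and 4.61 at 7 days), and AT4G16270, a second class III peroxidase (13.97 and 12.7 at 0 h, 1.91 and 2.54 at 7 days). Both missed the filter. Of the 3 tested class III peroxidases that carry a symbol, none is a member, and 0 were lower and 0 higher at 7 days than at 1 h by limma's adjusted p. At 24 h, 2 of these 3 were called lower than at 1 h and 0 higher. Their median log2 fold change from 1 h was -0.92 at 24 h and 0.21 at 7 days. Class III peroxidases are abundant in roots, and 3 of the 26 root markers listed for this work were measured. Their summed signal was 2259 to 2450 at 0 h, 1813 to 2067 at 1 h, 1042 to 1822 at 24 h and 818 to 1086 at 7 days, most of it from PYK10. EXPA7 and EXPA18, which mark root hair cells, had L at 7 days minus L at 0 h of -0.33 and 0.39, and none of the 3 was at 0. The part of root tissue in the values of these wall genes was not tested. The 2 measured leaf mesophyll markers summed to 5849 and 8383 at 0 h and 7532 and 6849 at 7 days, so their ranges overlap.

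Some members encode transport proteins, put together here after their values were seen. AT3G21670 encodes NPF6.4, a member of the nitrate and peptide transporter family, and read 549 and 318 at 0 h, 694 and 322 at 1 h, 620 and 291 at 24 h, and 151 and 178 at 7 days. Replicate 1 of AT3G21670 was about 2-fold above replicate 2 at the first 3 times and slightly below it at 7 days. The same order, replicate 1 above replicate 2 at 0 h, 1 h and 24 h, held for 23.5% of members and for 16.2% of all probe sets, and the opposite order for 20.4% of members and 23.7% of all. AT5G02180, of a family of amino acid transporters, read 61.1 and 88.8 at 0 h, 83.6 and 94.4 at 24 h, and 23.6 and 25.5 at 7 days. MATE carriers, which export organic compounds from the cytosol, were represented by AT2G21340, AT5G38030 and AT5G44050. AT2G21340, the brightest of them, read 209 and 175 at 0 h, 220 and 188 at 1 h, 156 and 142 at 24 h, and 77.7 and 78.4 at 7 days. The other 2 were dim, with means at 0 h of 55.5 and 35.9 and at 7 days of 17.1 and 11.1. AT1G61740, of a family related to bacterial sulfite exporters, was highest at 1 h: it read 623 and 629 at 0 h, 969 and 726 at 1 h, 508 and 500 at 24 h, and 268 and 287 at 7 days.

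Membrane and surface proteins included a pair of remorins, proteins that sit in nanodomains of the plasma membrane. AT3G61260 read 571 and 814 at 0 h, 571 and 916 at 1 h, 672 and 676 at 24 h, and 328 and 310 at 7 days, with overlapping arrays at the first 3 times. AT5G23750, the dimmer remorin, read 51.1 and 53.3 at 0 h and 10.9 and 19.7 at 7 days. Of the lipid transfer protein family, which carries lipids to the cuticle and wall, AT4G22490 read 522 and 822 at 0 h, 604 and 752 at 1 h, 464 and 810 at 24 h, and 248 and 240 at 7 days. Replicate 2 of AT4G22490 was the higher at the first 3 times and the replicates met at 7 days. A relative, AT4G22610, missed the filter, with a mean of 19.3 at 0 h and 3.58 at 7 days.

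The mean signal was highest at 24 h for 29 of the 162 members, at 1 h for 66 and at 0 h for 67. UGT84A3, a glucosyltransferase that makes glucose esters of hydroxycinnamic acids such as sinapate, read 60.2 and 82.1 at 0 h, 86.0 and 99.9 at 1 h, 110 and 88.4 at 24 h, and 27.5 and 18.8 at 7 days. AT3G56290, for which no role is given, read 711 and 747 at 0 h, 789 and 548 at 1 h, 838 and 1389 at 24 h, and 378 and 252 at 7 days. In both genes the 24 h arrays lie above the 0 h arrays and the 7-day arrays below them, and L at 24 h minus L at 0 h was 0.44 for UGT84A3 and 0.61 for AT3G56290. The latter is the highest such value among the members.

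Of the remaining members named by a fixed rule, ENGase85B, which cuts N-glycans from proteins, read 24.1 and 39.3 at 0 h, 28.9 and 30.01 at 1 h, 23.4 and 29.8 at 24 h, and 1.82 and 15.7 at 7 days. Its 7-day arrays differ by over 8-fold, both below the earlier times. CP1, a cysteine proteinase, was dim, at 21.6 and 20.5 at 0 h and 5.06 and 3.16 at 7 days. Among the 10 single-gene members with the largest differences were also AT3G59680 (L at 7 days minus L at 0 h of -1.81), the protein kinase AT5G37790 (-1.67), AT1G60200, an RNA-splicing factor (-1.67), and AT4G26790, a GDSL lipase (-1.60). AT1G67870, one of the 10 brightest single-gene members, had a mean of 445 ± 55.6 at 0 h and 191 ± 3.01 at 7 days (SD, n = 2).

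At the limit of 1, the values of members and non-members were alike. The last single-gene probe sets inside it were AT5G23680, AT5G37620 and AT1G08340, with L at 7 days minus L at 0 h of -1.01, -1.01 and -1.004. The first outside were GSTU23 at -0.999, AT1G19900 at -0.996 and AT1G06270 at -0.994. GSTU23, a glutathione transferase, read 18.9 and 15.6 at 0 h and 2.33 and 6.92 at 7 days, much as the members beside it.

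**Figure D4:**
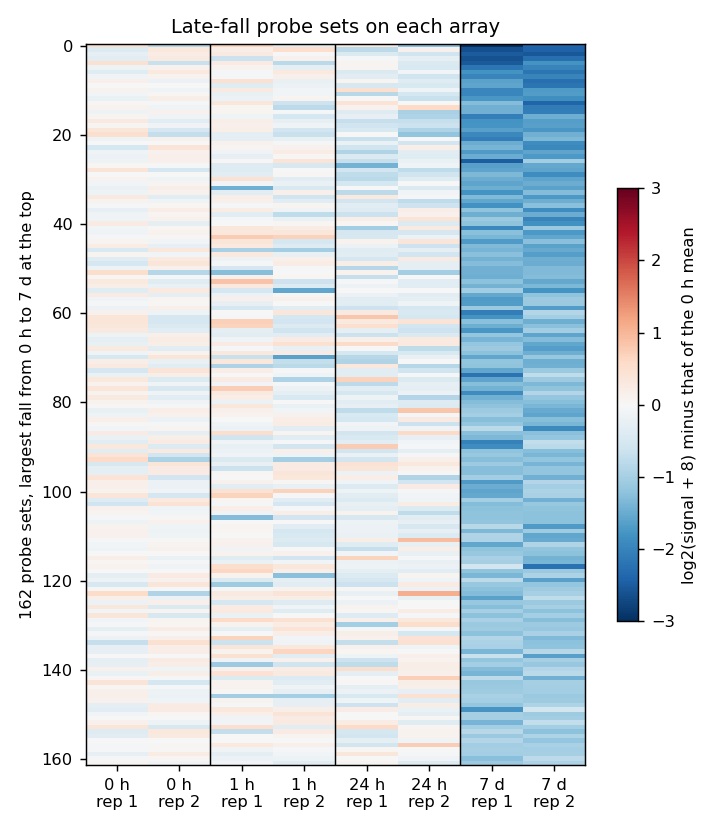
Log2(signal + 8) of each of the 162 late-fall probe sets on each of the 8 arrays, as the difference from the 0 h mean (blue lower, red higher), with the largest difference at the top. The 7-day columns are blue throughout by the choice of members. The 1 h columns, which were not used to choose them, are near white for most rows.

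The 1 h arrays were not used to choose the members and show where these transcripts stood after the first hour of cold. L at 1 h lay within 0.7 of L at 0 h for 153 of the 162, or 94.4%, against 95.7% of all probe sets. The median difference of the members was -0.02, with 85 below and 77 above 0, and that of all probe sets was -0.01. In limma's moderated test with Benjamini-Hochberg adjustment, none of the 115 tested members was called higher or lower at 1 h, where 0.313% of the 15017 tested probe sets were called higher and 0.00666% lower. At an unadjusted p under 0.05 there was 1 member higher, AT1G61740 (adjusted p = 1.00), and 1 lower, the unlisted probe set 253172_at (adjusted p = 0.891), where 3.23% of all tested probe sets were higher and 1.33% lower. The count of calls was also 0 under each alternative processing and with each array left out. The median standard error of a member's log2 difference was 0.28.

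Beyond 0.7 at 1 h lay 9 members, 8 of them lower and 1 higher than at 0 h, and 7 of the 9 missed the filter. The one that was higher was AT1G09500, of the cinnamyl alcohol dehydrogenase-like family, which read 19.5 and 20.4 at 0 h, 39.4 and 36.8 at 1 h, 11.97 and 16.6 at 24 h, and 2.74 and 1.47 at 7 days. Among the 7 dim ones was AT5G51440, a small heat shock protein gene, at 14.4 and 27.5 at 0 h, 12.3 and 1.78 at 1 h, 21.3 and 21.0 at 24 h, and 6.00 and 0.328 at 7 days. Probe set 253172_at, the tested one that was lower, read 205 and 133 at 0 h, 85.3 and 93.9 at 1 h, 213 and 89.9 at 24 h, and 68.2 and 57.4 at 7 days.

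Between 1 h and 24 h, 6 of the 115 tested members were called lower and 1 higher, where 14.7% of tested probe sets were called lower and 11.3% higher. The rule held the 24 h arrays near the 0 h arrays, which limits how many calls can arise, and nothing is read from the low count. The named genes called lower were AT1G09500 (log2 fold change -1.06 ± 0.33, SE, limma adjusted p = 0.0368), AT1G61740 (-0.73 ± 0.19, limma adjusted p = 0.0144) and AT1G52510 (-0.64 ± 0.19, limma adjusted p = 0.0275). AT1G09500 was dim on all arrays but those of 1 h, so it likely passed the filter through the 1 h arrays. Nothing is read from its call. The only member called higher was the unlisted probe set 256933_at, named, like 253172_at, after its values were seen. It read 434 and 335 at 0 h, 297 and 256 at 1 h, 618 and 378 at 24 h, and 193 and 138 at 7 days (0.79 ± 0.26, limma adjusted p = 0.0400). None of the 7 calls was kept with every array left out in turn, and without 1 h replicate 1 there were 0.

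The 1 h arrays also give a second set of levels to hold the 7-day arrays against. Both 7-day arrays read below both 1 h arrays for 156 of the 162 members, where 32.7% of all probe sets did. The 7-day arrays had been chosen to be low, so the share is no independent test. All 6 exceptions, among them AT5G51440, missed the filter. In the fit, 107 of the 115 tested members were called lower at 7 days than at 1 h and 0 higher, where 11.9% of tested probe sets were called lower and 9.86% higher. The 115 include members that passed the filter only through the earlier times, so this count supports nothing by itself either. As a description with the same limits, the median log2 fold change from 1 h to 7 days was -1.42 over the 115 and -0.07 over all tested probe sets. The fold change was -2.18 ± 0.28 (SE) for MSRB6, -2.12 ± 0.26 for AT5G51890, -1.72 ± 0.20 for AT5G57040, -1.48 ± 0.22 for LrgB and -1.22 ± 0.18 for AT1G80380. The difference for AT3G21670, -1.49 ± 0.39, was -0.94 without replicate 1 at 1 h and -2.03 without replicate 2 at 1 h. It was -1.38 without replicate 1 at 7 days and -1.60 without replicate 2 at 7 days.

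The 8 tested members that were not called comprised 5 unlisted probe sets, the RING finger gene AT5G17600 (-0.998 ± 0.45, limma adjusted p = 0.138), the protein kinase AT5G37790 (-1.23 ± 0.50, limma adjusted p = 0.0996) and AT1G08340 (-0.85 ± 0.29, limma adjusted p = 0.0559). Without 1 h replicate 1 the count of calls was 66 in place of 107, and 61 members were called with each array left out in turn. The labels do not say whether replicate arrays stem from plants grown separately. The p-values therefore measure the spread between these arrays alone, and it may be technical.

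**Figure D5:**
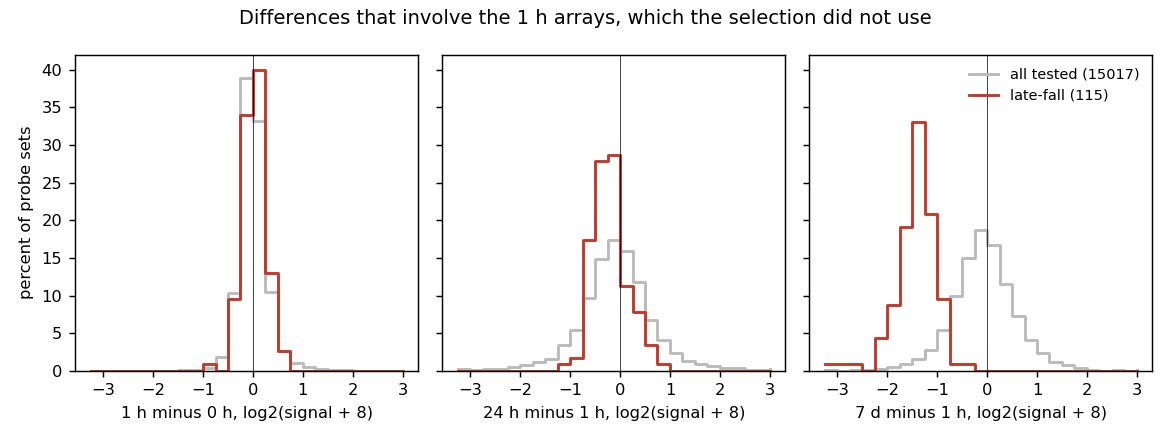
Share of probe sets (y axis, percent) by log2 difference in 3 comparisons that involve the 1 h arrays, for all 15017 tested probe sets (grey) and the 115 tested late-fall members (red), with the most extreme differences in the outermost bins. The red bars overlap the grey ones for 1 h minus 0 h and is shifted to a median of -1.42 for 7 days minus 1 h, where the 7-day arrays had been used to choose the members.

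For 58 members, 23 of them single-gene probe sets, the mean over all 8 arrays was at least 100. Their L at 1 h minus L at 0 h, which the rule did not use, had a median of 0.02 and ran from -0.86 to 0.43. This subset was chosen after the values were seen.

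Gene families that a member belongs to, and the photosynthesis genes, were described as a whole where symbols allowed. The counts are first limma calls from 1 h to 7 days at an adjusted p under 0.05. They are to be read against 11.9% lower and 9.86% higher over all tested probe sets. Of 30 tested UDP-glycosyltransferase probe sets, 9 were lower at 7 days than at 1 h and 2 were higher, with a median log2 fold change of -0.49 against -0.07 over all tested probe sets, and UGT84A3 was 1 of the 9 and the only member of the late-fall set. Of 8 tested probe sets for nitrate, ammonium, sulfate and phosphate transport and assimilation, 3 were lower and 0 higher, with a median of -0.31, and AT3G21670 was the only member. Of 28 tested transcription factor probe sets 4 were lower and 0 higher (median -0.27), while BZIP24 was too dim to be tested. Of 25 tested nuclear photosynthesis and chlorophyll probe sets 2 were lower and 2 higher (median -0.22), and 0 were members. LHCB4.3 had met the limits and was left out by name, so this 0 depends on that exclusion. Genes of cold and dehydration responses went the other way, with 6 of 14 tested probe sets higher and 1 lower (median 0.66), and their member CP1 entered that list through a synonym that names it after a drought-responsive protease. From 1 h to 24 h, 14.7% of tested probe sets were called lower and 11.3% higher. In that comparison 8 UDP-glycosyltransferase probe sets were lower and 5 higher, and for nutrient transport and assimilation 1 and 1. For transcription factors it was 7 and 2, for photosynthesis and chlorophyll 7 and 0, and for cold and dehydration 1 and 9. The calls at 7 days thus do not show when a family changed.

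By their locus codes the 88 member genes lay on all 5 nuclear chromosomes. There were 22 of 3411 measured genes on chromosome 1, 7 of 2169 on chromosome 2 and 14 of 2720 on chromosome 3. Chromosome 4 held 20 of 1935 and chromosome 5 held 25 of 2982. No member lay directly next to another in the gene table. The nearest were AT5G37990 and AT5G38030 with 4 genes between them and AT5G23680 and AT5G23750 with 6. Sequences of the probes, promoters and proteins were not used here.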

How the data were processed

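RNA of 8 plant samples, 2 for each of 0 h, 1 h, 24 h and 7 days at 4 °C, was measured on Affymetrix ATH1 arrays. The authors deposited linear signal intensity values per probe set made with MAS5, per the submitters' processing notes. The version of MAS5 is not stated in these notes, and detection calls were not used here. On each array the trimmed mean of the values is close to 100. No further normalization was applied.

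Members, gene lists and tests were chosen with earlier results of these data known, and the family groupings in the text after their values were seen. Gene names come from the array's annotation table, with symbols renewed from RefSeq (assembly TAIR10.1). In it 13513 probe sets have 1 gene, 503 several, and 8730 are unlisted. Promoter motifs were not analysed here. By a fixed rule, the single-gene members named are the 10 with the largest difference, the 10 brightest and those with a symbol. The rule also names those on a list, called between 1 h and 24 h, or at the limit. Other member genes in the text, such as AT1G51110, AT1G12230 and AT2G21340, were named after their values were seen. Lists were matched by patterns on symbols and synonyms, leaving out clone codes.

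The log2(signal + 8) values of the 15017 tested probe sets from all 8 arrays were fitted with limma 3.58.1 in R 4.3.3, with a mean per group, 4 residual degrees of freedom and an intensity trend. Tests are two-sided with Benjamini-Hochberg adjustment over the 15017, and calls are at an adjusted p under 0.05. With 2 arrays a group, precision is limited by their number, among other things. The procedure was run on simulated data with known falls and noise independent between arrays. Some same-numbered arrays here had correlated deviations, which that run did not include. Differences that chose the members were not tested. The alternatives were other scalings, pseudocounts of 1 and 32, no filter, no trend, only the arrays compared, a replicate block and each array left out.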

Additional observations from a re-analysis of the deposited data

How the results depend on the processing

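The rule found 162 members with all arrays and a pseudocount of 8. It found 478 with a pseudocount of 1 and 45 with 32, as dim probe sets enter or leave. It found 37 with a limit of -1.5, and between 175 and 368 with 1 array of 0 h, 24 h or 7 days left out. Each array left out also removed between 30 and 42 of the 162 members. The highest counts came without 7-day replicate 2 (368) and replicate 1 (320), where the rule asks for a single low array. Equal medians gave 150 (138 shared) and quantile normalization 128 (125 shared). Calls between 1 h and 24 h were 7, but 4 with equal medians, 4 without the filter, and 0 to 7 with 1 array left out: 0 without 1 h replicate 1, 3 without 24 h replicate 1 and 4 without 24 h replicate 2. Calls from 1 h to 7 days were 107, with 66 to 110 when 1 array was left out, and 90 of the 107 were kept under every alternative that used all arrays of the groups compared. The median log2 change over all tested probe sets from 1 h to 7 days was -0.07, and 0.05 with equal medians, where that of the members was -1.30. Deviations of same-numbered arrays correlated at 0.39 between 0 h and 1 h, 0.40 between 0 h and 24 h and 0.24 between 1 h and 24 h, but at -0.21, -0.03 and -0.17 between these 3 groups and 7 days. The numbers thus go together over the first 3 groups, a hint from the data and not from the labels, and were not taken to pair the samples over all 4. With the replicate block the calls were 0, 10 and 108 in the 3 comparisons. Of 24 tested named members, 0 changed direction. ENGase85B lost its call from 1 h to 7 days with equal medians, quantile normalization or no filter, and AT3G21670 without the filter. The calls of ENGase85B and AT3G21670 also depended on single arrays of 1 h or 7 days. So did those of AT1G31710, AT1G60200, AT3G56290, AT1G67870 and AT3G61260.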
